A study of Glycine max with 54 samples.

Results

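The subject of these results is a set of 100 soybean probe sets whose signal separated the varieties Archer and Minsoy more in seeds of 2007 than in seeds of 2008. A probe set is a group of short array probes designed to read a transcript, or several alike. Members were chosen among 5710 probe sets that are annotated to 1 gene with a LOC symbol and reached a log2 signal of 5 or more in at least 3 arrays. These belong to 4296 genes and are part of the 26482 probe sets past that filter in the series. Of the 5710, 2427 had an Archer minus Minsoy difference of 1 sign at all 3 seed stages of 2007. Members were selected on measured values: the score was the smallest absolute difference of 2007 minus the largest absolute difference of 2008, and the 100 highest scores were kept. They represent 92 genes; 63 members were higher and 37 were lower in Archer in 2007. The score used the parental arrays only, so every Archer and Minsoy value below is a description and is not tested. The recombinant lines were not used in the score. The filter counted all 54 arrays, so a probe set could pass it through signals in the recombinant lines. How many members did so is not given here.

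The series measured RNA of whole developing seeds of field-grown soybean (Glycine max) with Affymetrix arrays, 54 arrays in 18 groups of 3. Archer and Minsoy were sampled in 2007 and in 2008. A high yield line (6049-273) and a low yield line (6049-32), both recombinant inbred lines from the cross of these parents, were sampled in 2007. Each was sampled at seed lengths of 2, 3.5 and 5-6 mm. In 2007 each line stood in a single row that gave the 3 samples of a stage, so replicates of 2007 are samples of 1 row. The spread behind the p-values was estimated over all 54 arrays, the blocks of 2008 and the parental arrays used by the rule included. In 2008 the replicates were blocks planted at different times, with seeds of 2 rows pooled. Values are log2 signals, and levels of the 3 sets of arrays (parents of 2007, parents of 2008, recombinant lines) differ in their lowest values in a way that separate normalization would give. Levels are tested only within a set, and levels of 2007 beside those of 2008 are a description. One line in 1 row stands for each yield class, so a difference between them cannot be assigned to yield. Line and row cannot be told apart in 2007, and no p-value below sets one against the other.

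A recombinant inbred line is bred by selfing the progeny of a cross until it is nearly homozygous. At each locus such a line carries the allele of either parent, and its genome is a mosaic of both. In soybean, the seeds sampled here pass from early growth, with cell division in the embryo and a large seed coat, to seed filling, when storage proteins and oil accumulate. The LOC symbols of the members are gene identifiers without a descriptive name in the annotation used here, so no role is given for any member. LOC547562 carries the synonym KNBS1 in the RefSeq table of assembly Glycine_max_v4.0. No sequences are shown because none was used here.

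The label of the set, a difference in 2007 only, describes most members and not all. The rule favoured large differences of 2007 and small ones of 2008, so these values describe the choice and are no support for the label. The smallest 2007 difference had a median of 0.678 (log2) over the 100 members, and the largest 2008 difference a median of 0.232. Over all 2427 probe sets with 1 sign the same medians were 0.0922 and 0.287. In 33 members all 3 differences of 2007 were 1 or more. A 2008 difference of 1 or more at some stage remained in 7 of the 100 members, and one of 0.5 or more in 18. LOC100785654 was higher in Archer by 3.85, 4.28 and 2.95 at 2, 3.5 and 5-6 mm in 2007, and by 2.14, 1.48 and 2.52 in 2008. LOC100819853 was lower in Archer in both years, by as much as 5.80 (3.5 mm, 2007) and 2.47 (2 mm, 2008). The 9 Archer and 9 Minsoy arrays of 2007 did not overlap for 32 members, against 0.974% of all tested probe sets, a count that the rule itself favours. In 2008 the arrays did not overlap for 1 member, against 1.15%, and the rule bears on this count too.

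The scores fell quickly from the first member to the last. LOC100806292 had 8.60, and both members of LOC100775672 had 3.94 and 3.91. Only small distances separate the end of the list from what it leaves out. Ranks 98, 99 and 100 (LOC100806298, LOC100785771 and LOC100785356) had scores of 0.168, 0.163 and 0.162. The next probe sets (LOC100499705, LOC778079 and LOC100818440) had 0.161, 0.159 and 0.157.

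Before the results, 4 arrays have to be named that read against their labels. Seed filling also varied within further groups, as given after them. A line score was made from 100 probe sets that are neither members nor other probe sets of the members' genes, chosen without the array scored. On it 1 is the level of the high yield line and 0 that of the low yield line. The high yield array of 5-6 mm, replicate 1, scored 0.191, and the other 8 high yield arrays scored between 0.996 and 1.19. The low yield array of 2 mm, replicate 1, scored 1.01, and the other 8 low yield arrays between -0.257 and 0.317. These 2 arrays therefore read like the other recombinant line. They were kept under their labels. The main counts of called members are also given without both, and other results on these lines use all arrays unless stated. The low yield array of 3.5 mm, replicate 3, has conflicting labels, with the low yield line as its title and the high yield line as its description. It was grouped by title, and its score was -0.0318.

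The other 2 arrays go against their stage. In the Minsoy seeds of 2008, the mean of 10 seed filling genes (among them the glycinins GY1 and GY2, the 2S albumin GM2S-1 and the lipoxygenase LOX3) was 14.78 in 2 mm replicate 1 and 3.90 in 5-6 mm replicate 1. In replicates 2 and 3 it was 2.66 and 2.88 at 2 mm, and 14.20 and 14.94 at 5-6 mm. The rule uses the 2008 differences at each stage, so these arrays touch the choice of members. When members were chosen again without both arrays, 74 of the 100 stayed, and 43% of that list were called between the recombinant lines (below, 45%). The low yield array of 2 mm that reads like the high yield line also had a high seed filling mean, at 13.05 against 4.19 and 2.40 in the other 2 arrays of its group. Other groups of 2007 varied too. Archer of 5-6 mm was at 5.98, 14.46 and 13.30, and Minsoy of 3.5 mm at 3.99, 5.86 and 13.60. The low yield line of 5-6 mm was at 7.59, 14.77 and 13.33. Without Archer replicate 1 of 5-6 mm 93 members stayed, and without Minsoy replicate 3 of 3.5 mm 88.

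**Figure D1:**
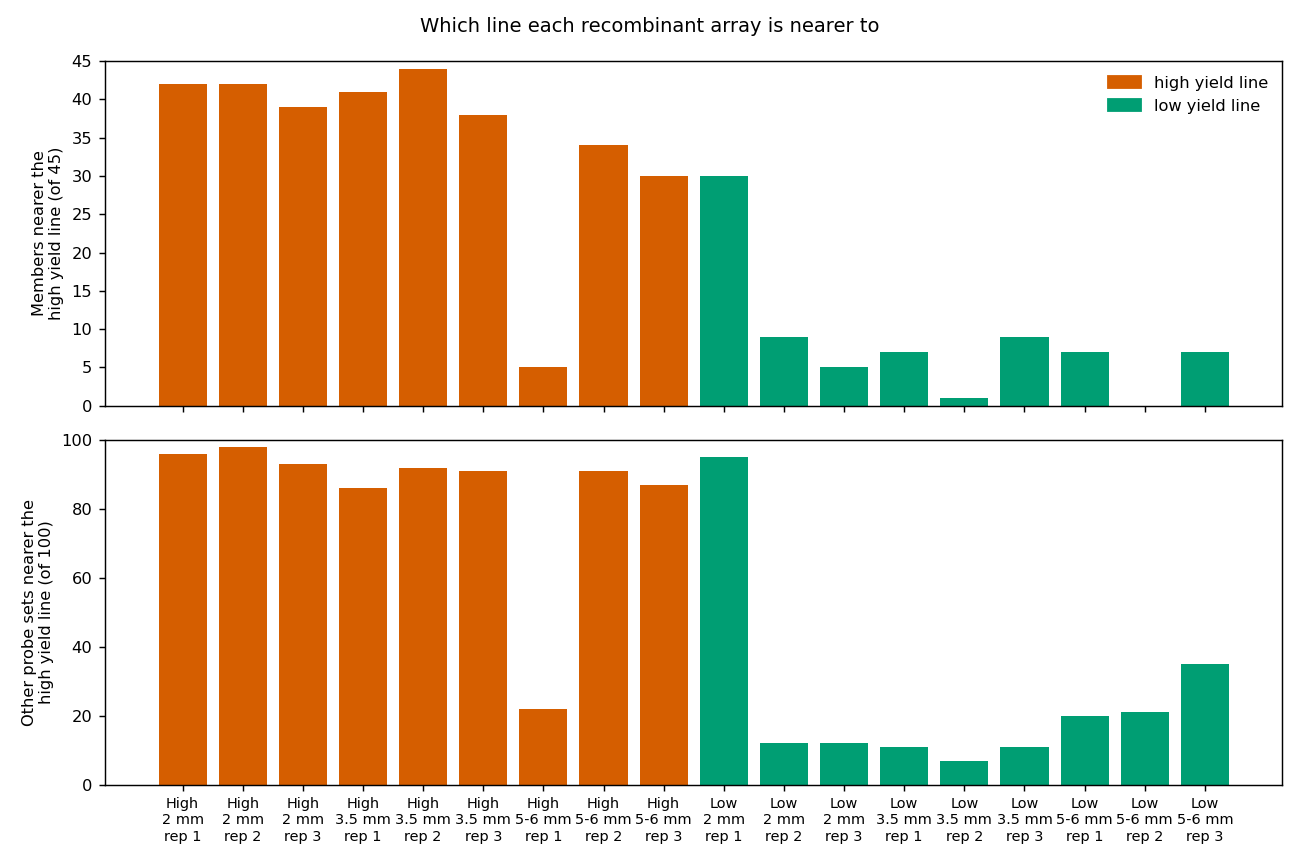
Upper panel: for each of the 18 recombinant line arrays, the number of the 45 called members whose log2 signal is nearer the high than the low yield line (bars, y axis 0 to 45). Lower panel: the same count over 100 other probe sets used for the line score (y axis 0 to 100). The high yield array of 5-6 mm replicate 1 has 5 and 22, and the low yield array of 2 mm replicate 1 has 30 and 95, each on the side of the other line.

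In the recombinant lines the members differed in the direction in which Archer and Minsoy had differed in 2007. Averaged over the 3 stages, 45 of the 100 members differed between the high and the low yield line (limma, adjusted p under 0.05 over all 26482 probe sets), against 5.37% of all probe sets tested. Of the 45, 33 were higher and 12 were lower in the high yield line (3.31% and 2.05% of all probe sets). All 45 had the sign of Archer minus Minsoy in 2007: the high yield line was the higher line where Archer had been the higher parent, and the lower line elsewhere. Signs were compared here, not levels. Over all 100 members, called or not, 88 had that sign. The 45 belong to 42 genes, and 40 of them had 1 sign at all 3 stages. Without the 2 arrays that read like the other line, 47 members were called, 31 higher and 16 lower (3.44% and 2.74% of all probe sets), all with the sign of 2007, against a background of 6.19%. The calls of both fits share 42 members. The 9 arrays of each line did not overlap for 0 members (0.00378% of all probe sets), and without both doubted arrays the 8 and 8 did not overlap for 23 (0.865%), 15 higher and 8 lower. Fitted on the 18 recombinant line arrays alone, the share called was 16% of the members and 1.69% of all probe sets.

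The share called was 10 of the 20 members with the highest scores, 14 of ranks 21 to 50 and 21 of ranks 51 to 100. Among the 63 members higher in Archer in 2007, 33 were called, and among the 37 lower ones 12. The 2327 probe sets with 1 sign in 2007 that are no members were called in 163 cases (7.0%), and 152 of these (93.3%) had the sign of 2007. Agreement of sign among called probe sets was therefore also seen outside the set. Called or not, 1666 of the 2327 had the sign of 2007, against 88 of the 100 members. The share called was also higher among members. The rule chose members for large 2007 differences, and other probe sets matched for that size were not compared. The smallest 2007 difference had a median of 0.678 in members and 0.0922 over all probe sets with 1 sign. The median absolute difference between the recombinant lines was 0.501 (log2) over the members and 0.116 over all tested probe sets.

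**Figure D2:**
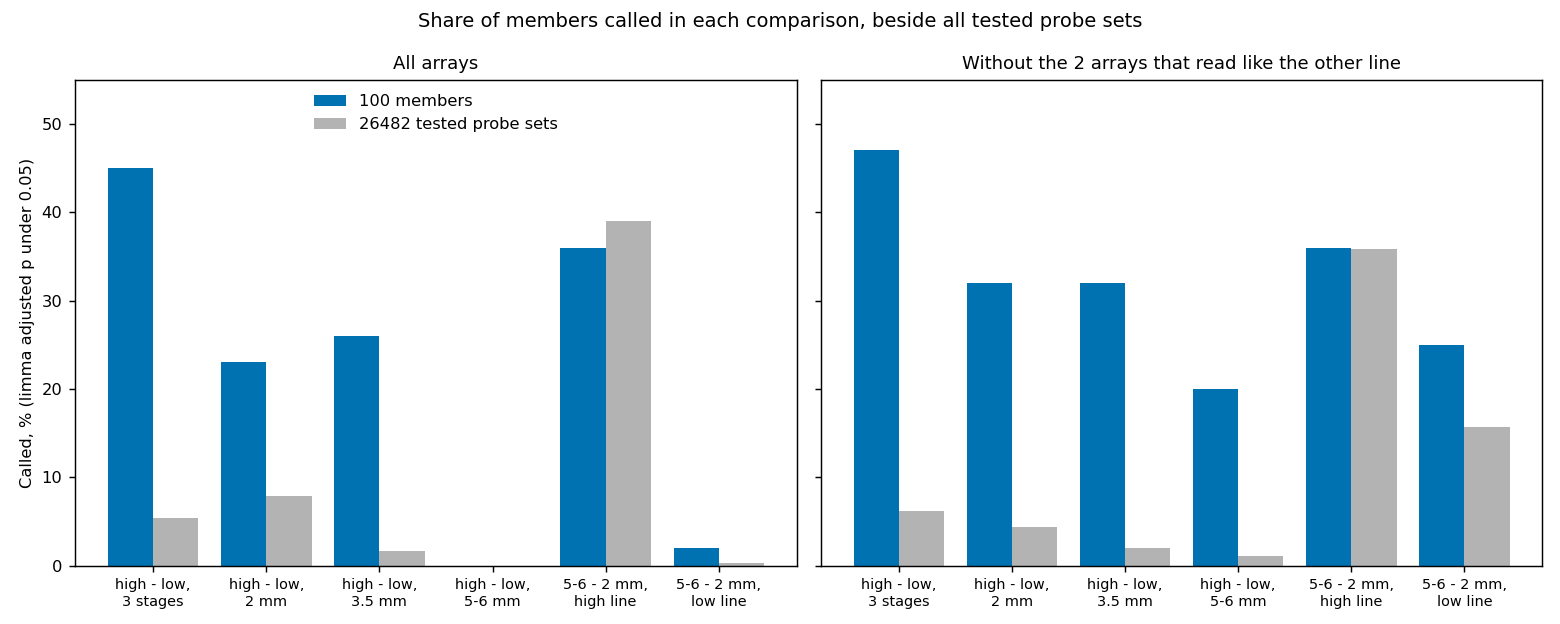
Percent called at a limma adjusted p under 0.05 (y axis) for the 100 members (blue bars) and for all 26482 tested probe sets (grey bars) in 6 comparisons, with all arrays (left) and without the 2 arrays that read like the other line (right). In the comparisons of high with low yield line the members' bars are the taller ones wherever any was called, with 0 at 5-6 mm in all arrays and 20 without both. In the stage change of the high yield line the bars are alike, at 36 and 39.0 in all arrays.

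LOC100806292 had the largest difference. It was at 0.98, 1.11 and 1.12 (log2) in the 2 mm seeds of the high yield line, at 0.95, 0.94 and 0.95 at 3.5 mm, and at 10.43, 0.53 and 0.97 at 5-6 mm. In the low yield line it was at 1.09, 10.25 and 5.66 at 2 mm, at 10.35, 11.01 and 10.71 at 3.5 mm, and at 9.87, 9.66 and 10.11 at 5-6 mm. The lines were nearly at an all or none contrast, with the 2 doubted arrays on the other line's side and 1 low yield array (2 mm, replicate 3) in between. The difference was -6.75 (SE 0.98, adjusted p = 7.96e-06), and -8.59 (SE 0.71, adjusted p = 1.15e-11) without both arrays. In the parents of 2007 it ranged from 2.41 to 9.79 in Archer, with 7 of 9 arrays at 2.65 or below and the other 2 at 8.31 and 9.79, and from 13.47 to 14.49 in Minsoy. In 2008 both varieties lay between 13.52 and 14.67. The signal of this member, low in most Archer arrays of 2007, was thus high in every array of 2008, Archer included. By its name it is a probe set of the kind shared by several transcripts. The other probe set of this gene, no member, differed between the parents in both years, by -0.48 to -0.85 in 2007 and by -0.30 to -0.97 in 2008.

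LOC100499730 had the same arrangement. In the high yield line it was at 5.35, 5.98 and 4.39 at 2 mm, at 7.47, 4.84 and 4.10 at 3.5 mm, and at 10.31, 3.20 and 3.15 at 5-6 mm. In the low yield line it was at 3.90, 10.52 and 10.44, then at 10.93, 10.21 and 10.93, then at 9.68, 10.30 and 10.22. Only the 2 doubted arrays crossed between the lines. The high minus low difference was -4.26 (SE 0.67, adjusted p = 2.59e-05), and -5.78 (SE 0.31, adjusted p = 6.24e-17) without them. Its range was 2.37 to 6.13 in Archer and 8.57 to 9.83 in Minsoy in 2007, and 9.08 to 10.40 over both varieties in 2008.

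Further members with a lower signal in the high yield line had differences beyond 2 log2 units. LOC100500204 differed by -3.39 (adjusted p = 8.11e-05), with 8 high yield arrays at 3.60 or below and 8 low yield arrays at 6.19 or above once both doubted arrays are set aside. The member of LOC100305550 that was lower in Archer differed by -2.99 (adjusted p = 8.69e-06). Other probe sets of this gene, no members, differed between the parents by only -0.10 to 0.07 in 2007. LOC100779813 has 2 members, which differed by -3.45 (adjusted p = 0.000136) and -2.19 (adjusted p = 0.000363). In these 4 members the mean of the high yield line was below that of the low yield line at all 3 stages.

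LOC100819853, at -2.35 (SE 0.51, adjusted p = 0.00237), changed along the stages in the low yield line. There it was at 7.16, 7.54 and 8.17 at 2 mm, at 7.72, 12.53 and 9.86 at 3.5 mm, and at 12.30, 12.94 and 12.38 at 5-6 mm. In the high yield line 8 arrays lay between 6.85 and 7.21, and 5-6 mm replicate 1 was at 12.42. The signal rose by 4.92 from 2 to 5-6 mm in the low yield line (adjusted p = 0.0143). The difference of stage changes, high minus low, was -3.19 (adjusted p = 0.215), and -4.72 (adjusted p = 0.0316) without both doubted arrays. Another probe set of this gene, no member, differed between the parents in both years, by -4.91 to -7.92 in 2007 and by -5.00 to -6.95 in 2008.

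**Figure D3:**
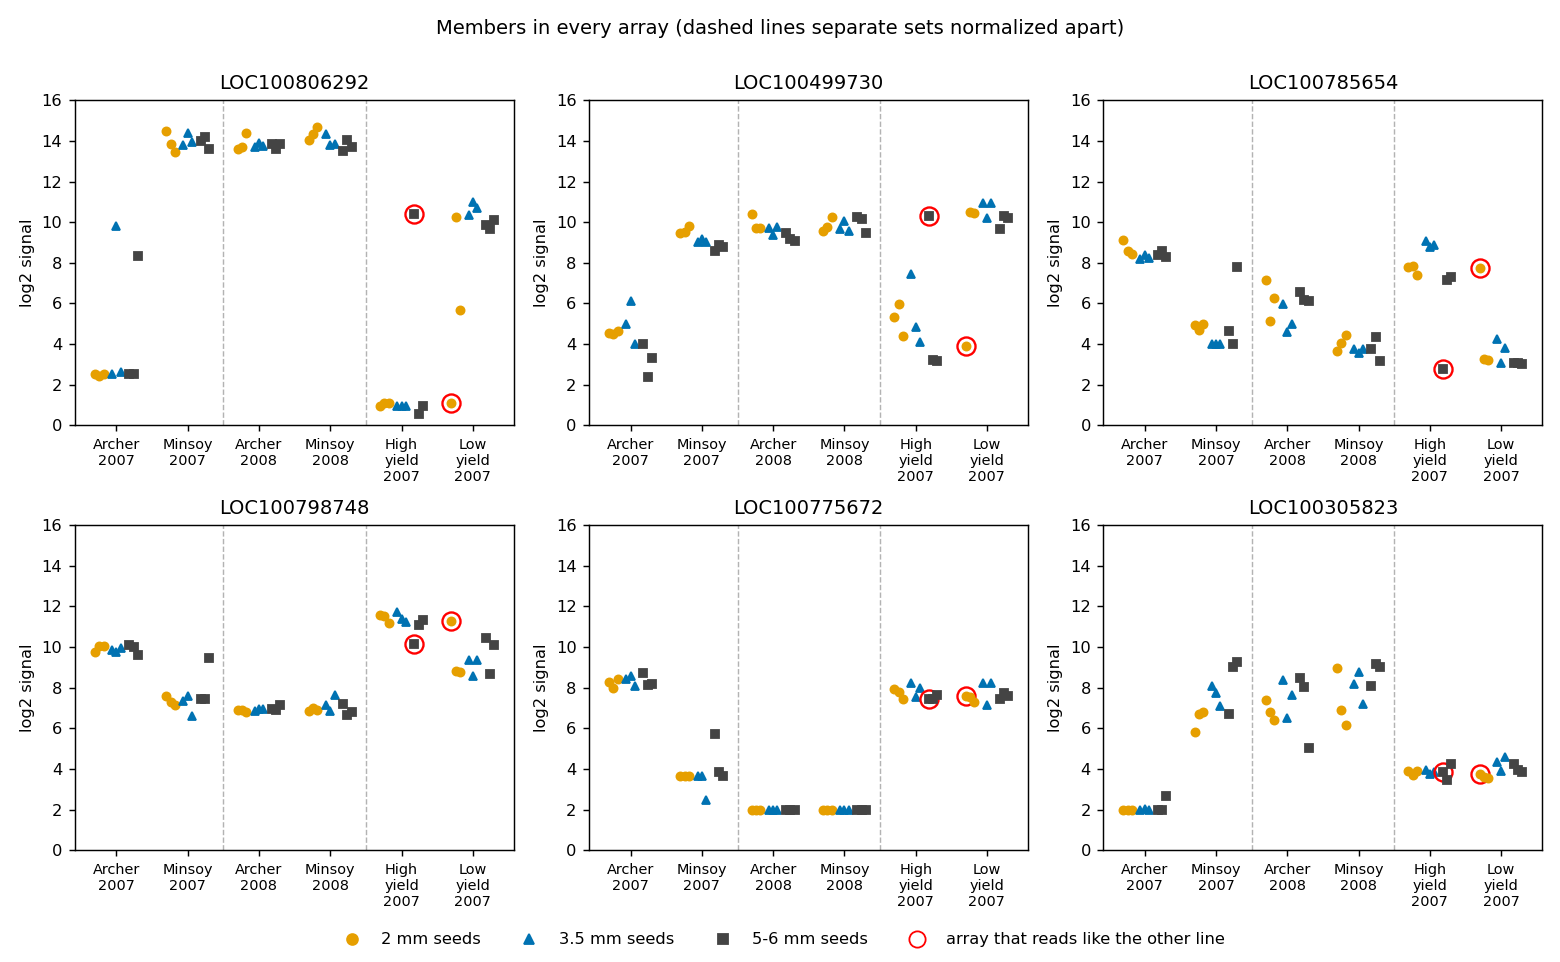
Log2 signal (y axis) of 6 members in every array, by line and year (x axis) and seed length (symbols). Red rings mark the 2 arrays that read like the other line. Dashed lines divide the 3 sets that appear to be normalized apart. LOC100806292, LOC100499730, LOC100785654 and LOC100798748 separate the high from the low yield line, and LOC100775672 and LOC100305823 do not.

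Among the members higher in Archer in 2007, LOC100785654 differed most between the recombinant lines. The high yield line was at 7.79, 7.83 and 7.42 at 2 mm, at 9.08, 8.76 and 8.86 at 3.5 mm, and at 2.76, 7.17 and 7.30 at 5-6 mm. The low yield line was at 7.77, 3.24 and 3.24, then at 4.24, 3.05 and 3.82, then at 3.08, 3.07 and 3.04. Again the arrays overlapped only through the 2 doubted ones. The difference was 3.60 (SE 0.49, adjusted p = 2.32e-06), and 4.60 (SE 0.31, adjusted p = 7.28e-14) without both. This is also the member with 2008 differences of up to 2.52 in the direction of 2007. The other probe sets of LOC100785654 past the filter, no members, were higher in Archer by only 0.13 to 0.60 in 2007.

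LOC100305872 differed by 3.58 (SE 0.69, adjusted p = 0.000624). All high yield arrays lay between 9.68 and 12.56. The low yield line was at 11.90, 5.90 and 5.45 at 2 mm, at 5.44, 5.60 and 6.37 at 3.5 mm, and at 11.55, 5.97 and 11.19 at 5-6 mm. Low yield arrays thus fell at 2 levels, with replicates 1 and 3 of 5-6 mm at the upper one. On other probe sets these 2 arrays had line scores of 0.181 and 0.317, the highest of the low yield line after the doubted array. LOC100305815 did likewise: it was at 10.37, 7.47 and 10.54 in the low yield seeds of 5-6 mm and at 6.69 to 8.45 in the 5 low yield arrays of smaller seeds other than the doubted one. It differed by 2.49 (SE 0.47, adjusted p = 0.000455). LOC100305908, at 1.05 (SE 0.19, adjusted p = 0.000205), had the same 2 low yield arrays at 11.20 and 11.30, with replicate 2 at 10.41. For all 3 genes some Minsoy arrays of 2007 came near Archer. LOC100305872, for example, was at 10.48 and 10.20 in Minsoy replicates 2 and 3 of 3.5 mm, and at 5.06 in replicate 1.

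LOC100798748 differed by 1.75 (adjusted p = 1.20e-05), LOC100778185 by 1.75 (adjusted p = 2.33e-06) and LOC100499880 by 1.5 (adjusted p = 0.00368). Of the 2 members of LOC100805567, 1 differed by 1.42 (adjusted p = 3.75e-11). The other differed by 0.43 and was also called. In LOC100798748 and LOC100499880 the Minsoy array of 2007 at 5-6 mm, replicate 3, was above the other Minsoy arrays. It was at 9.47 and 9.41 where the other 8 Minsoy arrays lay at 7.59 or below and at 8.24 or below. LOC100785654 had the same array at 7.79 against 5.01 or below. Over all members that array was within the range of the Minsoy arrays: it was nearer Archer for 21 of the 100, and the 9 arrays for 4 to 28. A line score of the parents of 2007 was made likewise from other probe sets, with 1 for Archer and 0 for Minsoy. On it that array had the highest Minsoy score, 0.265. There it was nearer Archer for 44 of 100 probe sets, and the other 8 Minsoy arrays for 2 to 28.

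**Figure D4:**
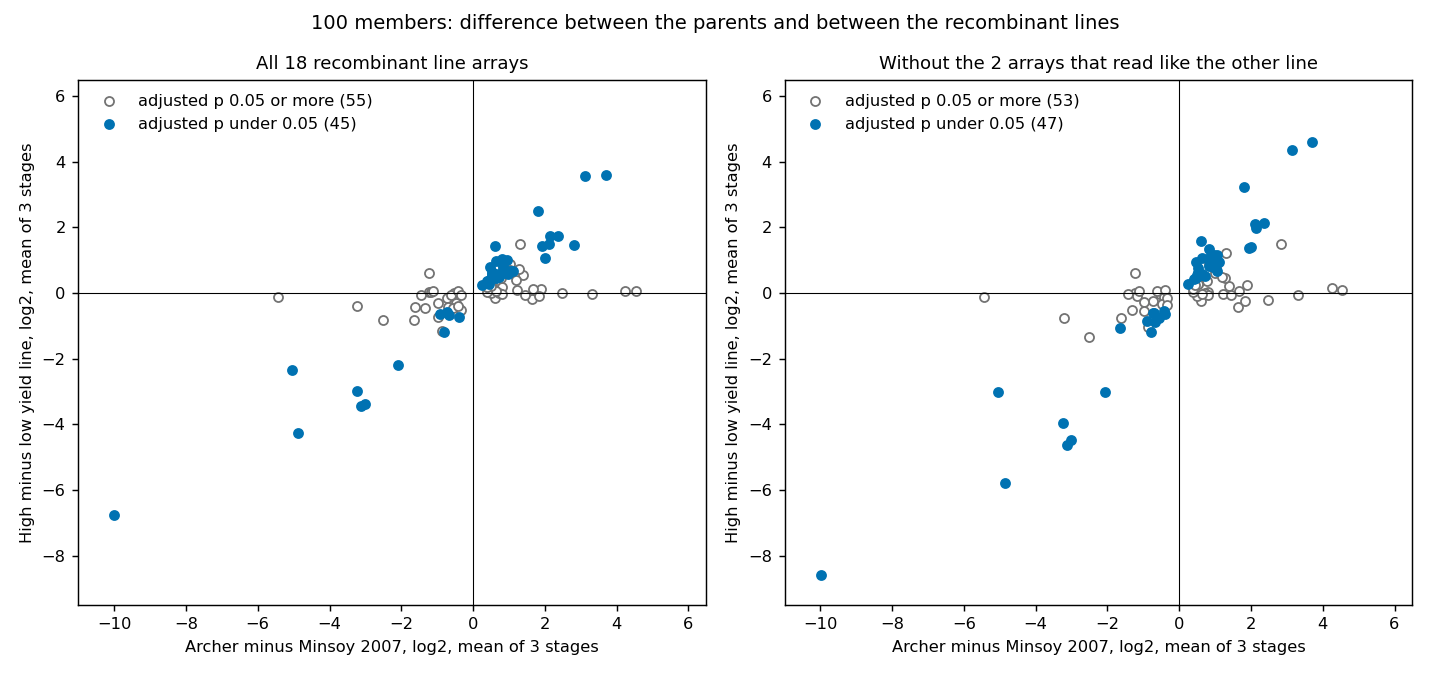
Each point is 1 of the 100 members, by its Archer minus Minsoy difference of 2007 (x axis, log2, mean of 3 stages) and its high minus low yield difference (y axis, log2, mean of 3 stages), filled where the adjusted p is under 0.05. Filled points lie in the lower left and upper right, and open points lie nearer 0 on the y axis, up to 1.5 from it, with all arrays (left) and without the 2 arrays that read like the other line (right).

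Over all 100 members the high minus low difference was 0.638 of the Archer minus Minsoy difference of 2007 (median ratio), and 0.691 of it without the 2 doubted arrays. In 61 members the ratio was 0.5 or more in either case. Over the 45 called members it was 0.895 and 1.11, among members picked by the size of that difference against its error. Across all 100 members Pearson's r between both differences was 0.800 and Spearman's rho 0.722, as a description over probe sets that share arrays.

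Some of the highest scores had no detectable difference between the recombinant lines. LOC100775672 has 2 members. In the first, Archer of 2007 lay between 7.96 and 8.71 and Minsoy between 2.49 and 5.72, and all 18 arrays of 2008 were at the lowest value of the scale, 1.96. In the recombinant lines it was between 7.43 and 8.20 (high yield) and between 7.17 and 8.23 (low yield). Both lines were thus at one level, with a difference of 0.07 (95% interval -0.28 to 0.43). The second member gave 0.05 (95% interval -0.18 to 0.28). One more probe set of this gene, no member, was higher in Archer by 0.22 to 0.75 in 2007.

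LOC100305823 was near the floor in Archer of 2007 (1.96 to 2.66) and at 5.84 to 9.25 in Minsoy. It lay between 3.47 and 4.61 in all 18 recombinant line arrays, with a difference of -0.13 (95% interval -0.85 to 0.59). In 2008 this member still differed between the parents, by -0.48, -0.53 and -1.58 along the stages. Another probe set of LOC100305823, no member, differed by 1.74, 0.26 and -0.15 in 2007. LOC100305997 differed by 0.12 (95% interval -0.32 to 0.56). LOC100527085, lower in Archer by 2.83 to 3.47 in 2007, differed by -0.40 (95% interval -1.02 to 0.22). Without both doubted arrays LOC100527085 differed by -0.75 and was not called either. Of the 55 members not called, 39 had a 95% interval that stayed within 1 log2 unit either way. For the other 16 the interval reached beyond that.

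At single seed lengths the calls were fewer. At 2 mm 23 members were called (background 7.87%), 18 higher and 5 lower (4.38% and 3.49%), and at 3.5 mm 26 (background 1.66%), 18 higher and 8 lower (0.986% and 0.676%). At 5-6 mm none was called by limma and none of all 26482 probe sets was either (background 0.0%), while 33 members and 124 of the 2327 other probe sets with 1 sign had an unadjusted p under 0.05. Every called member again had the sign of 2007. Without both doubted arrays the counts were 32 (background 4.36%), 32 (2.05%) and 20 (1.05%). No test was run of whether the differences themselves changed between stages other than from 2 to 5-6 mm, given below.

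Among members called at 2 mm, LOC547562 had the largest difference. It was at 6.76, 6.62 and 5.36 in the high yield line and at 2.08, 1.99 and 2.00 in the low yield line, which is 4.22 higher (SE 0.75, adjusted p = 0.000262). Low yield replicate 3 of 3.5 mm, the array with conflicting labels, was at 7.91 where all other low yield arrays lay at 2.12 or below. This member was at the lowest value in all 18 arrays of 2008. Another probe set of LOC547562 differed between the parents by 0.96, -0.78 and -1.73 along the stages of 2007. A further one differed by 3.58, 3.02 and 1.25 in 2007 and by 1.47, 0.43 and -1.75 in 2008. LOC100170710 was the opposite case at 2 mm, at 7.98, 7.90 and 8.35 against 10.24, 10.29 and 10.17, a difference of -2.16 (SE 0.28, adjusted p = 1.52e-06). LOC100306338 was lower by 1.40 on the log2 scale in the high yield line at 2 mm (adjusted p = 0.00132). LOC100791221, called at -2.0 with an adjusted p of 0.0471, had an adjusted p of 0.224 without both doubted arrays. Seed filling, vegetative and seed coat genes and a sign of RNA quality are given beside these calls, and their part in them was not tested. The seed filling mean was 8.60, 8.61 and 4.87 for high yield seeds against 13.05, 4.19 and 2.40 for low yield seeds of 2 mm. The mean of 5 vegetative genes, among them VSPA for a vegetative storage protein and RCABETA for a Rubisco activase, was 11.57, 11.51 and 11.36 against 10.38, 10.72 and 10.82 at 2 mm. At 3.5 mm it was 11.12, 11.17 and 10.95 against 10.68, 10.14 and 10.81, so the lines did not overlap at either length. The actin 3' minus 5' signal was 9.33, 9.11 and 9.52 in high yield seeds of 3.5 mm against 8.80, 8.90 and 8.75, again without overlap, and the lines overlapped in it at 2 and 5-6 mm. The 3 seed coat genes measured (HPS, Ep and SCB1) had means of 9.74 to 10.82 against 10.02 to 12.02 at 2 mm. Whole seeds were sampled, so a change in the amount of a tissue and a change of its RNA cannot be told apart.

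From 2 to 5-6 mm, 36 members changed in the high yield line, 9 upward and 27 downward, close to the 39.0% of all tested probe sets (15.8% and 23.3%). Of the 36, 34 fell where Archer had been the higher parent in 2007 or rose where it had been the lower one. Among the 962 other probe sets with 1 sign that changed, 785 (81.6%) did so. Without both doubted arrays the counts were 27 of 36 members (75%) and 724 of 898 other probe sets (80.6%), so the members no longer stood above the others. Seed filling also moved with the parents, and its part in this count was not tested: the mean at 3.5 mm in 2007 was 3.13, 2.88 and 4.35 in Archer and 3.99, 5.86 and 13.60 in Minsoy.

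The largest falls were those of LOC547562 (by 4.17, adjusted p = 5.28e-05), LOC100527444 (by 4.15, adjusted p = 0.00114) and both members of LOC778114. LOC100527444 went from 13.39, 13.29 and 13.42 at 2 mm to 9.07, 8.97 and 9.61 at 5-6 mm. The first member of LOC778114 fell by 3.80 and the second fell by 3.10 on the log2 scale (adjusted p = 1.60e-05 and 1.21e-05). The largest rises were those of LOC100806298 (2.73, adjusted p = 0.000886), LOC100791221 (2.49, adjusted p = 0.00246), LOC100795866 (2.26, adjusted p = 0.0209) and LOC100306338 (2.21, adjusted p = 4.54e-07). In the low yield line 2 members changed with stage (background 0.306%), LOC100819853 upward by 4.92 and LOC100796944 downward, at -1.39 (adjusted p = 0.0467), and 25 without both doubted arrays (background 15.7%).

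The stage change itself differed between the lines for 5 members (limma interaction contrast, background 1.18%). LOC100780288 is the clearest. Its member higher in Archer was at 10.84, 10.77 and 10.79 in the 2 mm seeds of the high yield line, at 10.73, 10.62 and 10.62 at 3.5 mm, and at 9.30, 9.83 and 9.64 at 5-6 mm. The low yield line stayed between 9.22 and 9.59 in all 9 arrays. The lines were apart in the smaller seeds and near each other in the largest. The member of LOC100805567 with the larger difference between the lines had a like course. It was between 4.56 and 5.35 in the smaller seeds of the high yield line and at 3.09, 4.73 and 3.41 at 5-6 mm. In the low yield line it was at 3.02 to 3.50. LOC100800221 went from 9.76, 9.86 and 9.11 to 7.10, 7.18 and 7.12 in the high yield line and lay between 7.07 and 7.72 in the low one. LOC547562 and LOC100170710 are the other two. Without both doubted arrays 3 members had a stage change that differed (background 0.487%): LOC100780288, LOC100805567 and LOC100819853.

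**Figure D5:**
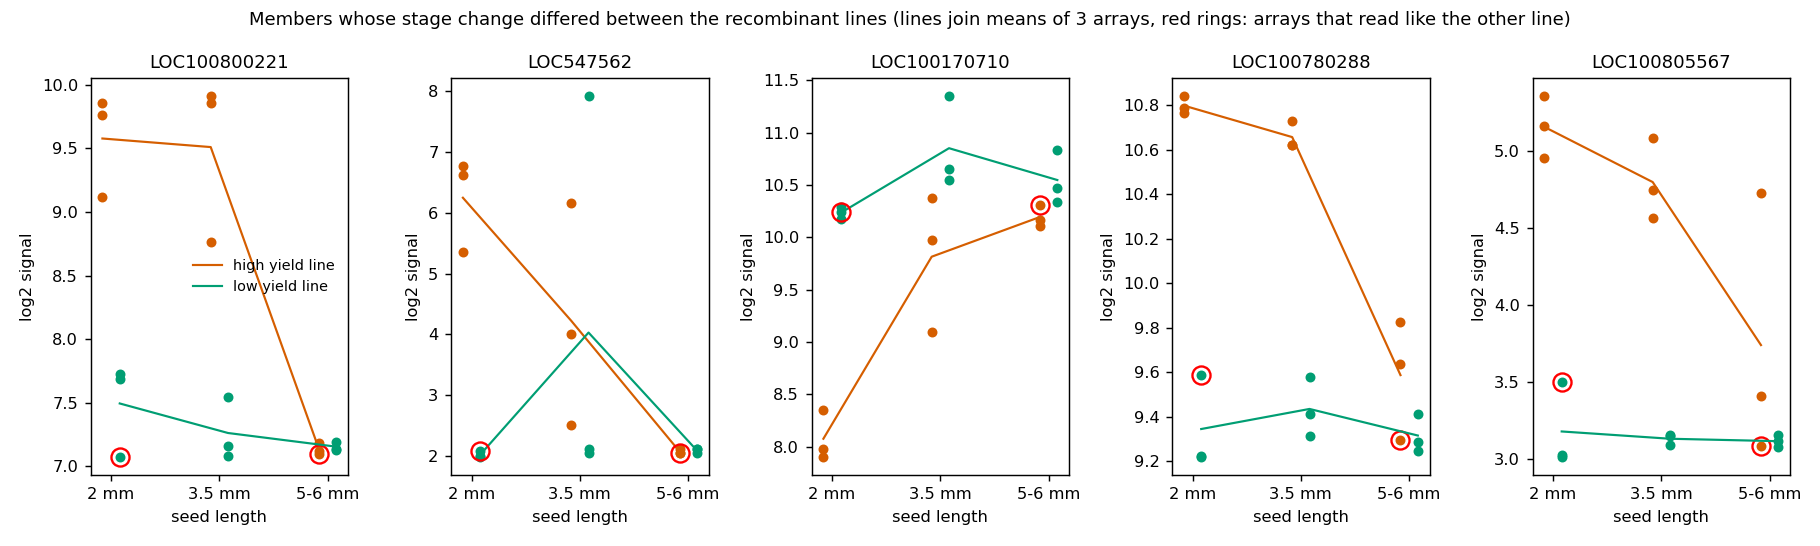
Log2 signal (y axis, its own range in each panel) by seed length (x axis) of the 5 members whose stage change differed between the high (orange) and the low yield line (green), with points for arrays, lines through means of 3 arrays and red rings on the 2 arrays that read like the other line. In 4 panels the high yield line starts above the low yield line and comes near it at 5-6 mm, and LOC100170710 starts below.

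The signal of both varieties in 2008 lay mostly on the side of Minsoy of 2007. The mean of the 18 arrays of 2008 was nearer the Minsoy than the Archer mean of 2007 for 87 of the 100 members, and for all 20 with the highest scores. Among the 2327 other probe sets with 1 sign this share was 52.9%. The years appear to be normalized apart and the rule used these arrays, so this is a description. Of the 45 members called between the recombinant lines, 42 were nearer Minsoy in this sense.

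Genes with several probe sets did not always read alike. There were 8 genes with 2 members each. Those of LOC100305550 and LOC100780288 went opposite ways: the second member of LOC100305550 was higher in the high yield line by 0.78 (adjusted p = 0.00103) where the first was lower, and the second member of LOC100780288 differed by -0.46 (adjusted p = 0.228). Of 36 other probe sets of the members' genes that passed the filter, in 24 genes, 29 had the sign of the member at all 3 stages of 2007. Only 2 of them had a smallest 2007 difference of 1 or more, and 5 were called between the recombinant lines. The probe set of LOC100806292 that is no member differed between the parents by -0.48 to -0.85 in 2007 and by -0.30 to -0.97 in 2008.

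By the suffix of the probe set name, 85 of 100 were of the plain kind, 11 of the kind shared by several transcripts, and 4 of the remaining kinds, against 76.1% and 15.5% of the plain and shared kinds among the 5710. Their median level in the recombinant line arrays was 9.02 (log2), against 9.31 over all tested probe sets, and their median spread within groups was 0.413 against 0.331. In all 18 recombinant line arrays 78 members were at 5 or more, as were 21021 of the 26482 tested probe sets. Of the 2327 other probe sets with 1 sign in 2007, 2005 were. For the gene pairs that follow, no count over other genes is given here. In the order of genes in assembly Glycine_max_v4.0, 1 pair of members' genes lay within 10 genes of each other (LOC100792657 and LOC100809492, 4 apart), and 10 pairs within 50. Both genes of the close pair were lower in Archer in 2007 and had no detectable difference between the recombinant lines, at 0.07 (adjusted p = 0.898) and 0.60 (adjusted p = 0.339).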

How the data were processed

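RNA of whole soybean seeds was hybridized to 54 arrays. The authors deposited log2 signals, made with GCRMA per the submitters' processing notes; its version is not given in the sources used here. From the values, 3 sets of 18 arrays appear to be normalized apart: parents of 2007 and of 2008, each with a lowest value of 1.96 shared by its arrays, and recombinant lines, with a lowest value of -1.56. Levels were tested within sets only, and 2008 levels were set beside 2007 levels as a description. Of 37744 probe sets, 174 controls and those under log2 5 in all but at most 2 arrays were left out, which left 26482; 8677 had 1 gene and 370 several. The array number limits precision.

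With R 4.3.3 and limma 3.58.1, a mean for each of 18 groups was fitted to all arrays (eBayes, Benjamini-Hochberg over all 26482, threshold 0.05), after tests on simulated data. Members, lists and tests were chosen with earlier results of these data known. Named members are the 6 highest scores each way, the 8 largest called differences each way with 1 sign at 3 stages, the 3 largest per stage, the 4 largest stage changes, genes with several members, neighbours, and the 3 ranks on each side of the end of the list; others were chosen after their values were seen. Markers were 10 seed filling, 3 seed coat and 5 vegetative genes. Same-numbered arrays of the recombinant lines had residual correlations of -0.22 to 0.51, so numbers were not taken as pairs. Alternatives were other filters and normalizations, replicate number as a block, array weights, robust eBayes with a trend, fewer arrays or probe sets, other list lengths and leaving out each array. Leaving out the doubted arrays was added after seeing the data. Planned groupings by product name and promoter motif were not analysed here.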

Additional observations from a re-analysis of the deposited data

Results flagged for a closer look

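The stage change from 2 to 5-6 mm, high minus low yield line, differed from 0 in 5 members by limma's interaction contrast. On the log2 scale it was -4.24 for LOC547562 (adjusted p = 0.0360), -2.11 for LOC100800221 (adjusted p = 0.00584), 1.80 for LOC100170710 (adjusted p = 0.0125), -1.35 for LOC100805567 (adjusted p = 0.00631) and -1.18 for LOC100780288 (adjusted p = 6.70e-05). Without both doubted arrays the adjusted p was 0.138, 0.0641, 0.0708, 0.0165 and 0.000108 in the same order.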

How the results depend on the processing

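Of 100 members, the share called was 45% for high minus low yield over 3 stages, 23%, 26% and 0% at 2, 3.5 and 5-6 mm, 36% and 2% for the stage change of the high and low yield line, and 5% for the difference of stage changes. The share of all probe sets in the same fit follows each in brackets where settings moved it. On the 18 recombinant line arrays alone the shares were 16% (1.69%) over 3 stages, 9.0% (1.84%) at 2 mm, 2.0% (0.0227%) at 3.5 mm, and 0.0% for the low yield stage change and the difference of stage changes. With the 200 highest scores they were 29.5% over 3 stages, 15.0% at 3.5 mm and 1.0% for the low yield stage change. With array weights they were 58.0% (31.9%) at 2 mm, 6.0% (0.295%) at 5-6 mm, 66.0% (64.7%) and 29.0% (27.9%) for the stage changes, and 16% (10.1%) for their difference, so the stage shares were near those of all probe sets. With a replicate block the shares were 50%, 31.0%, 30.0% and 2.0% (0.110%) for the line comparisons, 41.0% (45.5%) and 6.0% (1.35%) for stage, and 5.0% for the difference. The low yield stage change was 16% with no filter, below the 17.4% of all probe sets, and 1.0% with quantile normalization, with median centring and with the list chosen without both Minsoy arrays of 2008. A filter at log2 7 gave 3.30% (0.879%) for the difference of stage changes. Without both doubted arrays, 5-6 mm gave 20%, the low yield stage change 25.0% and the difference 3.0%. The cause of these shifts was not tested. Leaving out each array gave 39.0 to 49.0% over 3 stages, 12 to 30% at 2 mm, 19.0 to 31.0% at 3.5 mm, 0.0 to 13.0% at 5-6 mm (highest without high yield 5-6 mm replicate 1), 32.0 to 41.0% and 0.0 to 23.0% for stage (the latter highest without low yield 2 mm replicate 1) and 4.0 to 6.0% for the difference. Without 1 parental array 83 to 98 members stayed in the list, and 95 with quantile normalization. Reversed signs came only from members near 0: LOC100775672, which ranged from -0.0471 to 0.131 in the first and from -0.0272 to 0.144 in the second probe set when single arrays were left out, and LOC100305997 at -0.0036 (array weights). Of the other values of named members, 1097 kept their call, 41 lost it and 1 gained it.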
